A study of Oryza sativa with 12 samples.

Results

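The response of wild-type (WT) rice leaf blades to low phosphate (Pi) was followed in 6 RNA-seq libraries of a series of 12. The low-Pi group was made of 3 libraries from WT seedlings that had 14 d of high Pi and then 7 d of low Pi, and the high-Pi group of 3 libraries from WT seedlings kept with high Pi for all 21 d. The other 6 libraries came from the Oshmgb1 mutant under the same pair of regimes, 3 from each, and serve here only to show where WT behaved differently. All plants stood in a greenhouse, at 30 °C during the 12 h of light and at 22 °C during the 12 h of night. WT plants carried no transgene or mutation that the labels name, and the labels give no cultivar, no number of plants per library and no hour of harvest. The design text states 200 µM for high and for low Pi alike, so it does not tell how little Pi the low-Pi plants received. The labels do not say that replicates came from separate plants, so the p-values measure the spread between these libraries, which may be technical.

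Plants take up phosphorus as inorganic phosphate and use it in nucleic acids, phospholipids, ATP and the sugar phosphates of photosynthesis. When phosphate runs short, plants are known to induce phosphate transporters, to release phosphate from organic compounds with phosphatases and nucleases, to replace membrane phospholipids by galactolipids and sulfolipids, and to raise SPX proteins, which bind inositol pyrophosphates and restrain the transcription factors of the response. Phosphate and iron supply are also linked, since phosphate binds iron in the medium and in the plant.

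Expression was given as FPKM, fragments scaled to transcript length and library total, so levels are stated per length. A gene was tested where at least 3 of the 12 libraries reached 1 FPKM, which left 17630 of 32846 genes. Differences are means of log2(FPKM + 1) at low Pi minus high Pi, with a standard error (SE) from a limma fit over all 12 libraries, and p-values were adjusted over all tested genes by the Benjamini-Hochberg method with a threshold of 0.05. The added 1 makes this log2 difference understate the change of weakly expressed genes. The low-Pi and high-Pi values of WT did not overlap in 32.6% of tested genes. The largest described rises and falls were named only where they did not overlap, so their separation adds no support. In leaf blades, which hold many cell types, fewer cells of a type and less RNA per cell cannot be told apart.

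WT leaf blades changed the level of 2345 genes, 13.3% of those tested. Of these, 1487 rose at low Pi (8.43% of tested genes) and 858 fell (4.87%). Counts within gene lists are to be read beside these shares. With a log2 difference of at least 1 in size, 269 genes rose and 268 fell, together 537 (3.05%). Most differences were small: the median was 0.63 among risen genes and 0.78 in size among fallen genes. The few very large ones were mostly falls, with 8 genes that fell and 1 that rose by 5 or more on the log2 scale. The balance of rises and falls depended on scaling. With median-of-ratios scaling 1068 genes rose and 1180 fell, and with upper-quartile scaling 1313 rose and 975 fell, against a median difference over all genes of 0.07 as deposited.

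The WT libraries were alike in summed FPKM and in the number of expressed genes. The summed FPKM of the WT libraries ranged from 554232 to 583292, and the number of genes at 1 FPKM or more from 16445 to 16976. On the first principal component, which held 54.8% of the variance, the low-Pi libraries lay at 24.8 to 38.0 and the high-Pi libraries at −34.2 to −28.0. The second (17.6%) split the replicates of each group. High-Pi replicate 1 lay at −32.0 and the others of its group at 18.6 and 8.5. Low-Pi replicate 3 lay at −13.5 and the others of its group at 9.4 and 9.0. Counts in brackets after a gene list give the fewest or the most members called when 1 WT library was left out, where this moved the count by over 1.5 times. They also give the rises and falls with median-of-ratios scaling where the share of rises among the called members moved by over 10 percentage points. Low-Pi replicate 3 had the highest of the 3 low-Pi values in 60.3% of the genes that rose, and without it 1147 genes were called. Without high-Pi replicate 2 the count was 1416. Leaf identity was plain: the 20 tested loci for chlorophyll-binding proteins and the Rubisco small subunit summed to 37000 to 61100 FPKM at low Pi and 44900 to 45800 FPKM at high Pi, with 1 risen and 2 fallen (1 called without low-Pi replicate 3). Of 22 seed storage loci 1 reached the expression minimum. Of 45 loci described as Casparian strip or dirigent proteins, taken by description alone as root barrier markers, 7 did. By limma 0 of either kind were called. Of these, 1 had an unadjusted p under 0.05. Of the matched loci, 15 seed storage and 19 root barrier loci were listed at 0 in all 6 WT libraries.

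**Figure D1:**
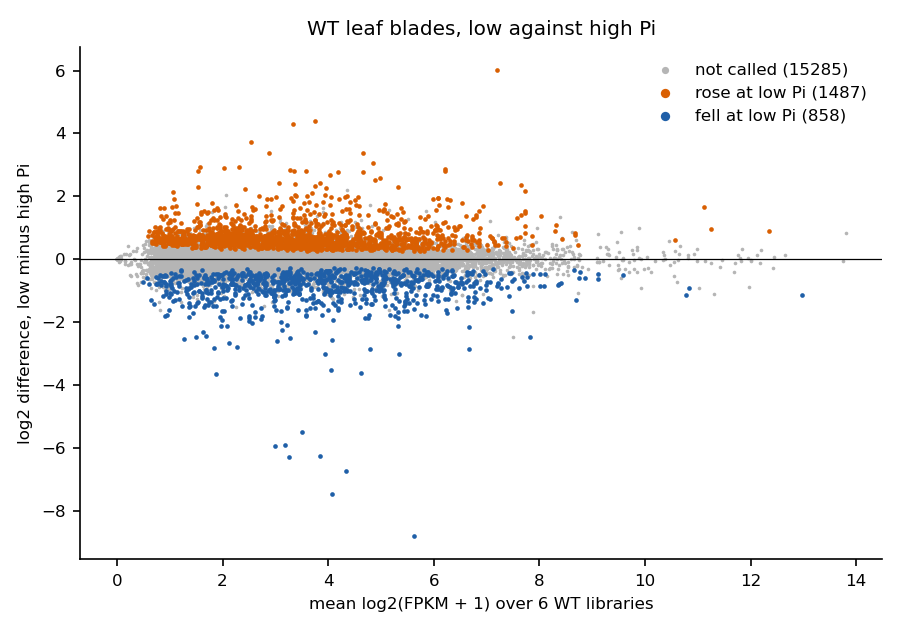
Mean expression of the 17630 tested genes in the WT libraries (horizontal, mean log2(FPKM + 1)) against the log2 difference, low minus high Pi (vertical). Orange points are the 1487 genes that rose, blue points the 858 that fell and grey points the rest; the largest differences are falls.

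Genes of thiamine synthesis and of iron handling were among those that moved most sharply. The locus LOC_Os07g34570, an oxidoreductase annotated to thiazole biosynthesis, the step that makes the sulfur-containing ring of thiamine (vitamin B1), had 832, 1265 and 1554 FPKM at low Pi, against 13.8, 15.1 and 24.8 FPKM at high Pi (log2 difference 6.01 ± 0.35 SE, limma adjusted p = 3.58e-06). The thiC locus LOC_Os03g47610, whose product makes the pyrimidine ring of thiamine, had 51.5, 60.2 and 72.1 FPKM at low Pi, against 2.03, 1.24 and 2.71 FPKM at high Pi (log2 difference 4.40 ± 0.20 SE, limma adjusted p = 6.54e-07). In both genes each low-Pi library stood far above each high-Pi library. The enzyme that turns thiamine into its active diphosphate, thiamin pyrophosphokinase 1 (LOC_Os01g70580), had 11.7, 14.4 and 16.1 FPKM at low Pi, against 7.51, 7.78 and 7.51 FPKM at high Pi (log2 difference 0.80 ± 0.11 SE, limma adjusted p = 0.000915), so its groups were also apart but by far less. Among 17 tested genes of 18 annotated to thiamine, 4 rose and 0 fell, and the other 13 did not pass the test. That is 23.5% called, against 13.3% of all genes.

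Several members of the iron list were among the deepest falls. LOC_Os07g15460, described as the metal transporter Nramp6 and annotated to iron transport, had 0.68, 0.55 and 0.67 FPKM at low Pi, against 158, 93.1 and 129.7 FPKM at high Pi (log2 difference −6.26 ± 0.52 SE, limma adjusted p = 4.12e-05). It was close to absent in all 3 low-Pi libraries and high in all 3 high-Pi libraries. A helix-loop-helix factor of the iron list, LOC_Os01g72370, had 1.42, 0.02 and 0.98 FPKM at low Pi, against 86.8, 66.2 and 75.6 FPKM at high Pi (log2 difference −5.50 ± 0.39 SE, limma adjusted p = 1.2e-05). A second helix-loop-helix factor, LOC_Os03g26210, which is not on the iron list and has no iron annotation in the deposited table, had 4.39, 3.92 and 4.86 FPKM at low Pi, against 48.4, 35.6 and 45.1 FPKM at high Pi (log2 difference −3.02 ± 0.16 SE, limma adjusted p = 2.03e-06). Transcripts of both factors were thus low in every low-Pi library.

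Further members of the iron list fell, of which LOC_Os11g42510 and LOC_Os05g47780 were picked after their values were seen. The falls described are a selection, since over the whole list 9 genes rose and 11 fell among 54 tested (37.0% called, against 13.3% of all genes). The ferric-chelate reductase LOC_Os04g48930, of the enzyme class that reduces Fe(III) at the plasma membrane, had 0.02, 0.02 and 0.7 FPKM at low Pi, against 7.67, 5.73 and 4.11 FPKM at high Pi (log2 difference −2.47 ± 0.34 SE, limma adjusted p = 0.000919). The tyrosine aminotransferase LOC_Os11g42510, annotated with nicotianamine aminotransferase activity, a step in the synthesis of the iron chelators that grasses secrete, had 5.07, 4.13 and 4.33 FPKM at low Pi, against 15.1, 15.7 and 13.5 FPKM at high Pi (log2 difference −1.52 ± 0.23 SE, limma adjusted p = 0.00141). A pair of E3 ubiquitin ligases annotated to iron starvation was also lower: LOC_Os01g49470 had 22.03, 17 and 17.02 FPKM at low Pi, against 39.1, 39.7 and 41.4 FPKM at high Pi (log2 difference −1.07 ± 0.14 SE, limma adjusted p = 0.00076). The other, LOC_Os05g47780, had 7.47, 6.49 and 5.83 FPKM at low Pi, against 19.2, 16.9 and 16.98 FPKM at high Pi (log2 difference −1.30 ± 0.18 SE, limma adjusted p = 0.00088).

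A gene annotated to the storage of iron in the vacuole moved the other way. LOC_Os09g23300, an integral membrane protein annotated to iron and manganese transport across the vacuolar membrane, had 2.37, 3.56 and 4.51 FPKM at low Pi whereas the 3 high-Pi libraries were each listed at 0 (limma adjusted p = 9e-05). The iron list as a whole was split, with 9 genes risen and 11 fallen (13 called without low-Pi replicate 1) among 54 tested of 76 matched, and a median difference of −0.03. Outside iron, the copper transporter LOC_Os01g56420 had 49.03, 51.5 and 58.7 FPKM at low Pi, against 16.3, 23.9 and 13.1 FPKM at high Pi (log2 difference 1.56 ± 0.21 SE, limma adjusted p = 0.000914). Boron moves through transporters too, and the boron transporter LOC_Os01g08020 had 0.56, 0.2 and 0.43 FPKM at low Pi, against 9.9, 3.56 and 5.79 FPKM at high Pi (log2 difference −2.33 ± 0.46 SE, limma adjusted p = 0.0072). Of 74 tested genes for metal transport and binding, 4 rose and 9 fell (4 called without low-Pi replicate 3, 2 up and 11 down by median of ratios). That is 17.6% called, against 13.3% of all genes.

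Some of the largest changes lay in loci that the deposited annotation calls only expressed protein, and these were picked here after their values were seen, apart from LOC_Os01g45914, which the rule for named genes took for its FPKM difference. LOC_Os01g45914 had 0.97, 0.5 and 3.4 FPKM at low Pi, against 1276, 911 and 972 FPKM at high Pi (log2 difference −8.79 ± 0.58 SE, limma adjusted p = 7.49e-06), the largest log2 difference of any tested gene. LOC_Os10g11889 had 0.27, 0.19 and 0.38 FPKM at low Pi, against 234, 209 and 228 FPKM at high Pi (log2 difference −7.46 ± 0.31 SE, limma adjusted p = 6.54e-07). Neither had a low-Pi library above 4 FPKM. Among the rises, LOC_Os03g15920 had 72.7, 81.2 and 88.6 FPKM at low Pi, against 6.89, 6.13 and 7.74 FPKM at high Pi (log2 difference 3.37 ± 0.22 SE, limma adjusted p = 6.69e-06). Of the 20 called genes that changed by 3 or more on the log2 scale, 10 had no description, as had 24.1% of all tested genes.

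**Figure D2:**
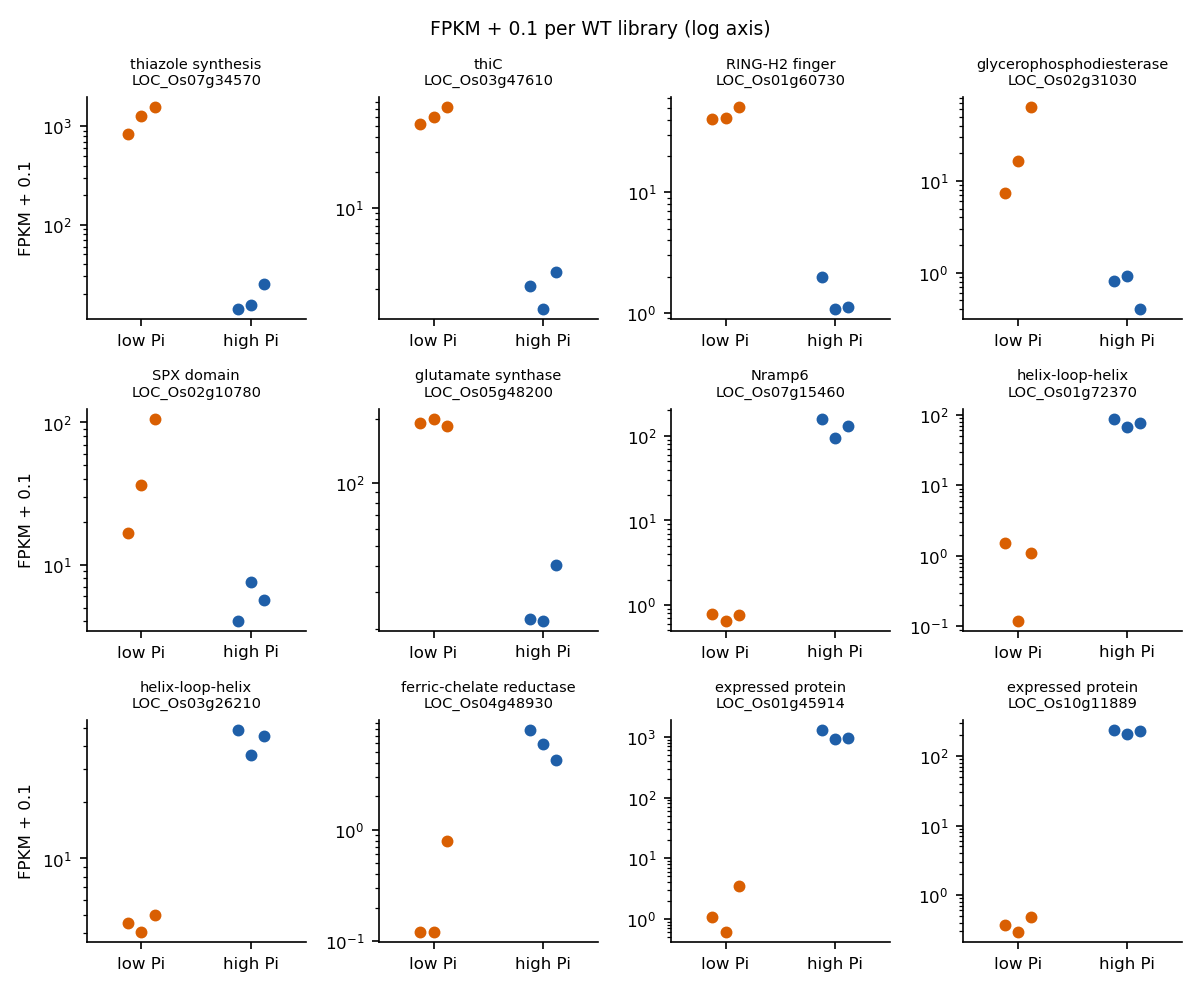
FPKM on a log scale, as FPKM + 0.1, in each of the 3 low-Pi (orange, left) and 3 high-Pi (blue, right) WT libraries for 12 strongly changed genes. Each point is 1 library. The groups are apart in every panel, as in 32.6% of all tested genes, and most panels show genes named only where the groups were apart. Among the rises, the SPX and glycerophosphodiesterase panels show the widest spread among low-Pi libraries.

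Among genes annotated to the phosphate starvation response, 5 of 25 tested rose and 2 fell, with a median difference of 0.09. That is 28.0% called, against 13.3% of all genes. The fallen ones were inositol-3-phosphate synthase LOC_Os03g09250 and the phospholipase D LOC_Os05g29050. The phospholipase had 4.07, 3.54 and 4.18 FPKM at low Pi, against 5.4, 4.71 and 5.34 FPKM at high Pi (log2 difference −0.32 ± 0.09 SE, limma adjusted p = 0.0456), and this call was lost whichever of the 6 WT libraries was left out, at limma adjusted p-values of 0.0532 to 0.127. LOC_Os02g10780, an SPX domain protein, had 16.6, 36.3 and 106 FPKM at low Pi, against 3.93, 7.48 and 5.54 FPKM at high Pi (log2 difference 2.67 ± 0.50 SE, limma adjusted p = 0.00548). The other tested SPX gene, LOC_Os06g40120, had 16.5, 32.7 and 76.6 FPKM at low Pi, against 7.69, 9.45 and 8.59 FPKM at high Pi (log2 difference 1.90 ± 0.44 SE, limma adjusted p = 0.0166). The glycerophosphodiester phosphodiesterase LOC_Os02g31030, of the class that cleaves the head groups left by phospholipid breakdown, had 7.23, 16.5 and 62.9 FPKM at low Pi, against 0.71, 0.83 and 0.3 FPKM at high Pi (log2 difference 3.71 ± 0.54 SE, limma adjusted p = 0.00129). In both SPX genes and the phosphodiesterase gene low-Pi replicate 3 was the highest and replicate 1 the lowest of its group, and the lowest low-Pi value still exceeded the highest high-Pi value. Of 6 tested genes of the phosphodiesterase class, 3 rose and 0 fell.

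Of 20 tested enzymes that release phosphate from small molecules, 6 rose and 2 fell. The haloacid dehalogenase (HAD) phosphatase LOC_Os01g09540 had 30.6, 38.5 and 29.9 FPKM at low Pi, against 4.65, 6 and 8 FPKM at high Pi (log2 difference 2.25 ± 0.31 SE, limma adjusted p = 0.000946). A second HAD phosphatase, LOC_Os06g36400, had 19.1, 19.2 and 20.4 FPKM at low Pi, against 6.5, 5.49 and 8.17 FPKM at high Pi (log2 difference 1.43 ± 0.16 SE, limma adjusted p = 0.000308). The nucleotide pyrophosphatase LOC_Os12g38750, annotated with acid phosphatase activity, had 12.2, 17.96 and 14.3 FPKM at low Pi, against 3.42, 4 and 4.16 FPKM at high Pi (log2 difference 1.69 ± 0.23 SE, limma adjusted p = 0.000909). These 3 genes had all low-Pi libraries close together, well clear of the high-Pi libraries. The soluble pyrophosphatase LOC_Os02g47600, which splits the pyrophosphate left by biosynthesis into phosphate, had 43.8, 94.1 and 89.3 FPKM at low Pi, against 18.4, 24.98 and 25.2 FPKM at high Pi (log2 difference 1.62 ± 0.26 SE, limma adjusted p = 0.00209). The most abundant pyrophosphatase, LOC_Os02g52940, had 92.96, 104 and 84.2 FPKM at low Pi, against 70.9, 89.2 and 84.99 FPKM at high Pi (log2 difference 0.20 ± 0.13 SE, limma adjusted p = 0.342) and did not pass the test. The purple acid phosphatase LOC_Os01g56880, an enzyme class that frees phosphate outside the cell or in the vacuole, had 8.45, 11.3 and 13.7 FPKM at low Pi, against 4.96, 4.85 and 5.19 FPKM at high Pi (log2 difference 1.00 ± 0.16 SE, limma adjusted p = 0.0025).

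Phosphate carriers changed in both directions. Plastid translocators exchange phosphate for phosphorylated carbon compounds, and LOC_Os08g25624, annotated to phosphoenolpyruvate and triose phosphate exchange, had 115, 125 and 134 FPKM at low Pi, against 36.8, 38.9 and 34.8 FPKM at high Pi (log2 difference 1.74 ± 0.11 SE, limma adjusted p = 4.41e-06). LOC_Os05g07870, described as a triose phosphate translocator of non-green plastids, had 127, 108 and 109 FPKM at low Pi, against 285, 278 and 214 FPKM at high Pi (log2 difference −1.16 ± 0.16 SE, limma adjusted p = 0.000968). LOC_Os02g38020, a chloroplast phosphate transporter of type 2-1, had 59.6, 41.99 and 32.9 FPKM at low Pi, against 93.8, 116 and 91.1 FPKM at high Pi (log2 difference −1.18 ± 0.19 SE, limma adjusted p = 0.00214). One plastid carrier was thus higher and a pair was lower, in each case with no overlap between groups, as in 32.6% of all tested genes. In all, 3 of 17 tested phosphate transport genes rose and 2 fell (3 called without low-Pi replicate 2), of 31 matched. Their called share was 29.4%, against 13.3% of all genes. The phosphate transporter LOC_Os06g29790 had 6.28, 8.99 and 7.84 FPKM at low Pi, against 4.57, 5.13 and 3.33 FPKM at high Pi (log2 difference 0.71 ± 0.16 SE, limma adjusted p = 0.0161); its call was lost without low-Pi replicate 2, low-Pi replicate 3 or high-Pi replicate 3, with adjusted p-values of 0.0552, 0.0594 and 0.0566.

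Inositol and membrane lipid genes were changed as well. Inositol-3-phosphate synthase, LOC_Os03g09250, which makes the inositol backbone of inositol phosphates and phytate, had 9.54, 8.27 and 11.3 FPKM at low Pi, against 33.99, 28.3 and 28.3 FPKM at high Pi (log2 difference −1.55 ± 0.16 SE, limma adjusted p = 0.000173). The galactolipid gene LOC_Os11g05990, a digalactosyldiacylglycerol synthase, had 13.6, 12.1 and 14.8 FPKM at low Pi, against 42.2, 38.2 and 39.8 FPKM at high Pi (log2 difference −1.50 ± 0.15 SE, limma adjusted p = 0.000112), and so fell, with all 3 low-Pi libraries under all 3 high-Pi libraries. LOC_Os05g32140, an epimerase placed by the deposited orthology and enzyme columns as UDP-sulfoquinovose synthase, which makes the head-group donor of sulfolipid, had 38.3, 42.4 and 42.8 FPKM at low Pi, against 22.9, 22.1 and 21.98 FPKM at high Pi (log2 difference 0.85 ± 0.17 SE, limma adjusted p = 0.00831). Uridine 5-monophosphate synthase, LOC_Os01g72240, an enzyme of pyrimidine nucleotide synthesis, had 19.4, 15.6 and 23.7 FPKM at low Pi, against 8.23, 8.5 and 7.92 FPKM at high Pi (log2 difference 1.14 ± 0.14 SE, limma adjusted p = 0.000479). Of 7 genes described as galactolipid synthases, which do not include LOC_Os05g32140, 2 rose and 2 fell (1 called without low-Pi replicate 3). Among 21 tested phospholipases 1 rose and 1 fell (0 called without low-Pi replicate 3), and among 4 tested ribonucleases of the T2 family, a class that releases phosphate from RNA, 0 were called by limma, and 1 had an unadjusted p under 0.05.

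Clock and light-signalling transcripts formed another group of large differences. LOC_Os08g06110, a MYB factor that the deposited orthology column places in the group of LHY, a dawn-phased repressor of the Arabidopsis clock, had 47.9, 32.2 and 32.8 FPKM at low Pi, against 295, 275 and 254 FPKM at high Pi (log2 difference −2.85 ± 0.15 SE, limma adjusted p = 1.82e-06). LOC_Os02g40510, placed in the group of TOC1, an evening-phased Arabidopsis clock repressor, had 27.5, 26.2 and 46.4 FPKM at low Pi, against 6.35, 3.86 and 5.5 FPKM at high Pi (log2 difference 2.44 ± 0.32 SE, limma adjusted p = 0.000686). LOC_Os09g36220, in the group of the pseudo-response regulator PRR5, had 157, 121 and 267 FPKM at low Pi, against 42.02, 48.1 and 57.6 FPKM at high Pi (log2 difference 1.79 ± 0.30 SE, limma adjusted p = 0.00276). The dawn gene was thus low and the evening genes high in each low-Pi library. OsFBO10 (LOC_Os11g34460), an F-box protein annotated to circadian rhythm and blue light response, had 4.12, 6.35 and 10.8 FPKM at low Pi, against 0.16, 0.04 and 0.09 FPKM at high Pi (log2 difference 2.80 ± 0.25 SE, limma adjusted p = 5.62e-05). Of 21 tested genes in clock orthology groups, 5 rose and 3 fell (4 up and 5 down by median of ratios), which is 38.1% called, against 13.3% of all genes. Clock transcripts cycle through the day, and whether the groups were sampled at the same hour was not tested, since no hour is given.

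Of 32 tested B-box and CCT proteins, which act in light and flowering responses, 5 rose and 9 fell, which is 43.8% called against 13.3% of all genes. The B-box protein LOC_Os02g39360 had 67.2, 70.2 and 73.3 FPKM at low Pi, against 148, 176 and 167 FPKM at high Pi (log2 difference −1.21 ± 0.13 SE, limma adjusted p = 0.000259). Among the rises, LOC_Os08g42440, which carries a B-box and a CCT motif, had 20.02, 18.2 and 21.6 FPKM at low Pi, against 7.39, 7.63 and 8.07 FPKM at high Pi (log2 difference 1.26 ± 0.14 SE, limma adjusted p = 0.000209). The CCT protein LOC_Os05g51690 had 27.6, 45.9 and 45.8 FPKM at low Pi, against 10.3, 9.93 and 10.8 FPKM at high Pi (log2 difference 1.81 ± 0.17 SE, limma adjusted p = 7.4e-05). All 3 genes had groups that did not overlap, as was so for 32.6% of all tested genes.

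**Figure D3:**
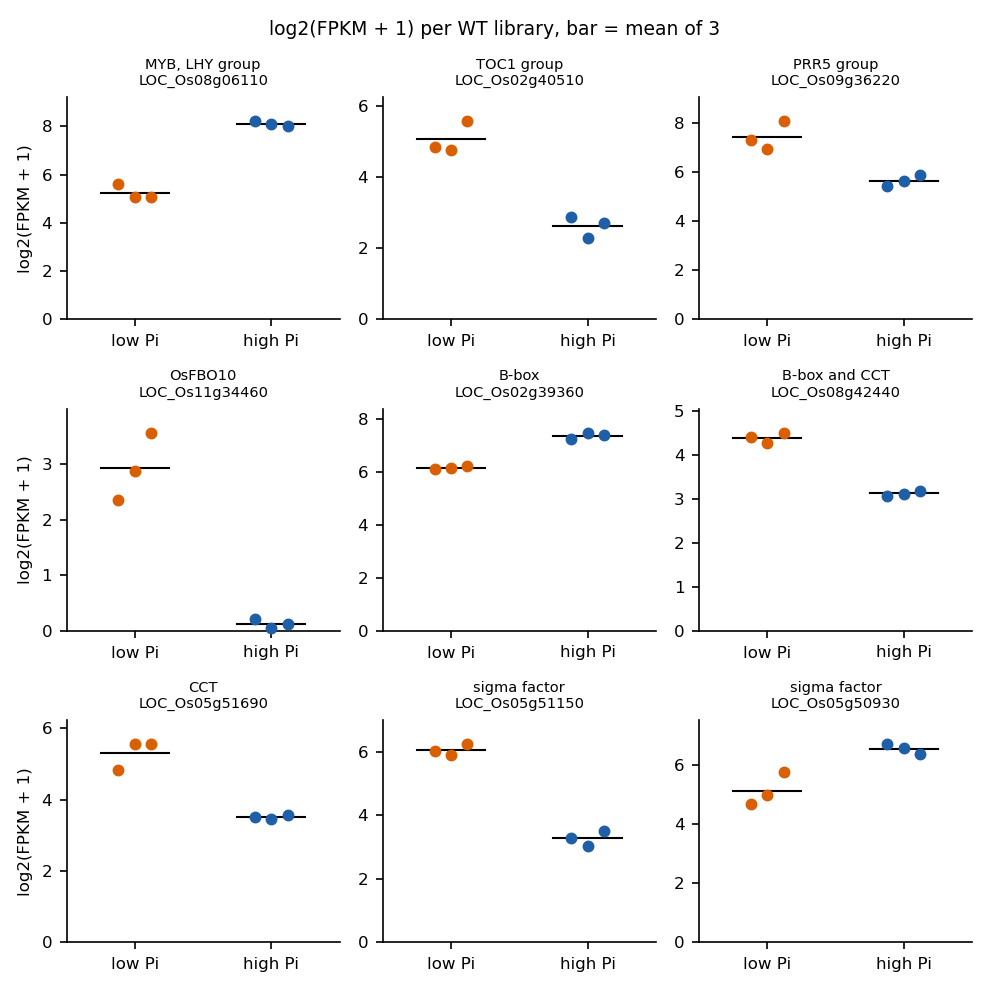
Per-library log2(FPKM + 1) of 9 clock, B-box and plastid sigma factor loci in WT, with low-Pi libraries in orange on the left and high-Pi libraries in blue on the right; horizontal bars are means of 3 libraries. The LHY-group and 1 sigma factor locus lie lower at low Pi, and the TOC1-group and the other sigma factor locus higher.

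In the plastid, transcripts of the transcription machinery and of carbon fixation changed in single genes. Sigma factors direct the plastid RNA polymerase to its promoters, and LOC_Os05g51150 had 63.4, 58.2 and 74.3 FPKM at low Pi, against 8.83, 7.26 and 10.2 FPKM at high Pi (log2 difference 2.77 ± 0.29 SE, limma adjusted p = 0.000179). Another sigma factor, LOC_Os05g50930, had 24.4, 30.4 and 52.4 FPKM at low Pi, against 102, 93.1 and 81.3 FPKM at high Pi (log2 difference −1.41 ± 0.25 SE, limma adjusted p = 0.0046). The first was high and the second low in every low-Pi library, and the other 4 of 6 sigma factors did not pass the test. The chloroplast protein LOC_Os08g04450, a DAG protein annotated to chloroplast RNA modification, had 210.0, 162 and 229 FPKM at low Pi, against 27.1, 23.04 and 29.1 FPKM at high Pi (log2 difference 2.87 ± 0.33 SE, limma adjusted p = 0.000327). CP12 (LOC_Os01g19740), a small protein that holds Calvin cycle enzymes in an inactive complex in the dark, had 3535, 3831 and 4541 FPKM at low Pi, against 1401, 1199 and 1145 FPKM at high Pi (log2 difference 1.67 ± 0.27 SE, limma adjusted p = 0.00264).

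A few abundant transcripts of carbon fixation shifted by large amounts of FPKM. LOC_Os11g47970, annotated as a Rubisco activator, had 5277, 5669 and 5317 FPKM at low Pi, against 11661, 12333 and 12048 FPKM at high Pi (log2 difference −1.15 ± 0.20 SE, limma adjusted p = 0.00364), the largest FPKM difference of any called gene. The aldolase LOC_Os11g07020 had 1124, 1556 and 1337 FPKM at low Pi, against 2705, 2287 and 2465 FPKM at high Pi (log2 difference −0.90 ± 0.19 SE, limma adjusted p = 0.011). The fructose-1,6-bisphosphatase LOC_Os01g64660, at a far lower level, had 90.8, 82.7 and 76.2 FPKM at low Pi, against 148, 141 and 135 FPKM at high Pi (log2 difference −0.76 ± 0.12 SE, limma adjusted p = 0.00178). These 3 genes were lower at low Pi with no overlap of groups, as in 32.6% of all tested genes. The light-induced protein LOC_Os01g01340 had 7382, 7264 and 6955 FPKM at low Pi, against 3088, 4143 and 4360.3 FPKM at high Pi (log2 difference 0.91 ± 0.21 SE, limma adjusted p = 0.0158), and this call was lost without high-Pi replicate 1 (limma adjusted p = 0.0711). With no expression filter the calls of LOC_Os11g47970, LOC_Os11g07020 and LOC_Os01g01340 were lost, at limma adjusted p-values of 0.442, 0.089 and 0.242. Over the Calvin cycle list, 2 of 44 genes rose and 3 fell (3 called without high-Pi replicate 1, 1 up and 6 down by median of ratios), and the most abundant, the Rubisco small subunit LOC_Os12g17600, had 4082, 8452 and 5276 FPKM at low Pi, against 5809, 5291 and 5185 FPKM at high Pi (log2 difference 0.06 ± 0.31 SE, limma adjusted p = 0.925), with groups that overlapped.

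Genes of the photosystems were called at about the background share (13.9%, against 13.3% of all genes). Of 36 tested nuclear genes for photosystems and light harvesting, 3 rose and 2 fell (3 called without low-Pi replicate 3). The clearest rise was LOC_Os07g01480, with the domain of the oxygen-evolving enhancer protein 3, at 17.4, 20.2 and 22.8 FPKM at low Pi, against 6.42, 5.43 and 6.41 FPKM at high Pi (log2 difference 1.57 ± 0.15 SE, limma adjusted p = 8.06e-05). The loci for products of the plastid genome differed from this: 0 rose and 12 fell of 61 (1 called without low-Pi replicate 3 and 24 called without low-Pi replicate 1), with a median difference of −0.52, against 0.07 over all genes. Plastid transcripts lack long poly(A) tails and have near-identical copies in the nuclear genome, so their FPKM is uncertain. In chlorophyll and porphyrin metabolism 12 of 77 genes rose and 4 fell (8 called without low-Pi replicate 3), among them the chlorophyll b reductase LOC_Os01g12710, a first step of chlorophyll b breakdown, with 74.2, 63.97 and 66.7 FPKM at low Pi, against 32.9, 37.7 and 39.4 FPKM at high Pi (log2 difference 0.88 ± 0.11 SE, limma adjusted p = 0.000576). This list had 20.8% called, against 13.3% of all genes.

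Starch and sugar genes that changed were mostly lower. The beta-amylase LOC_Os03g04770, of the class that releases maltose from starch, had 7.76, 7.16 and 8.23 FPKM at low Pi, against 51.1, 23.1 and 28.2 FPKM at high Pi (log2 difference −1.93 ± 0.26 SE, limma adjusted p = 0.000875). A second beta-amylase, LOC_Os03g22790, had 2.54, 1.84 and 1.28 FPKM at low Pi, against 7.33, 9.68 and 14.6 FPKM at high Pi (log2 difference −1.97 ± 0.35 SE, limma adjusted p = 0.0042). Sucrose-phosphate synthase LOC_Os01g69030, which makes the precursor of sucrose, had 27.1, 28.7 and 29.1 FPKM at low Pi, against 50.2, 46.1 and 51.6 FPKM at high Pi (log2 difference −0.78 ± 0.11 SE, limma adjusted p = 0.000943). All 3 had higher values in each high-Pi library, where groups did not overlap in 32.6% of all tested genes. A sucrose synthase, LOC_Os03g28330, an enzyme that cleaves sucrose, had 3.62, 3.17 and 3.21 FPKM at low Pi, against 0.97, 0.89 and 1.29 FPKM at high Pi (log2 difference 1.08 ± 0.16 SE, limma adjusted p = 0.00133). Of 53 genes tested for sucrose and starch, 5 rose and 8 fell (7 called without high-Pi replicate 2, 3 up and 11 down by median of ratios). Their called share was 24.5%, against 13.3% of all genes.

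Nitrogen genes showed a pair of large and opposite differences. The plastid glutamate synthase LOC_Os05g48200, which makes glutamate from glutamine, had 193, 201 and 186 FPKM at low Pi, against 22.2, 21.8 and 40.5 FPKM at high Pi (log2 difference 2.79 ± 0.28 SE, limma adjusted p = 0.00014). The ammonium transporter LOC_Os04g43070 had 21.6, 17.4 and 26.5 FPKM at low Pi, against 83.1, 73.9 and 57.1 FPKM at high Pi (log2 difference −1.67 ± 0.17 SE, limma adjusted p = 0.00014). Of 21 tested nitrogen genes 1 rose and 3 fell (2 called without low-Pi replicate 1), which is 19.0% called, against 13.3% of all genes. Peptide transporters, the family that also holds nitrate carriers, gave 5 rises and 6 falls among 49 genes (22.4% called). The deepest of these, LOC_Os01g65100, had 8.43, 5.76 and 4.13 FPKM at low Pi, against 40.1, 35.9 and 43.4 FPKM at high Pi (log2 difference −2.56 ± 0.20 SE, limma adjusted p = 3.15e-05), and the oligopeptide transporter LOC_Os03g54000 had 6.16, 5.45 and 4.92 FPKM at low Pi, against 21.2, 20.7 and 21.9 FPKM at high Pi (log2 difference −1.78 ± 0.11 SE, limma adjusted p = 6.66e-06).

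Both of the aquaporins that rose, channels for water and small solutes, did so by a large margin. LOC_Os05g14240 had 338, 367 and 355 FPKM at low Pi, against 49.9, 64.2 and 87.5 FPKM at high Pi (log2 difference 2.41 ± 0.29 SE, limma adjusted p = 0.000451). LOC_Os09g36930 had 334, 488 and 575 FPKM at low Pi, against 107, 72.1 and 85.7 FPKM at high Pi (log2 difference 2.37 ± 0.26 SE, limma adjusted p = 0.000262) and was the most abundant aquaporin in these leaves. LOC_Os07g26690, by contrast, had 26.8, 34.4 and 31.2 FPKM at low Pi, against 49.5, 53.8 and 57.9 FPKM at high Pi (log2 difference −0.79 ± 0.13 SE, limma adjusted p = 0.00272). In total 2 of 19 tested aquaporins rose and 2 fell, which is 21.1% called, against 13.3% of all genes.

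Among hormone genes, 8 of 22 tested members of the cytokinin list fell (36.4%, against 4.87% of all genes) and 0 rose, with a median difference of −0.45 and a positive difference in 6. Of the 22 tested, 14 are also on the glucosyltransferase list, among them 5 of the 8 that fell. OsRR2 (LOC_Os02g35180), a type-A response regulator, which cytokinin induces and which dampens its signal, had 20.9, 17.1 and 19.3 FPKM at low Pi, against 64.3, 57.1 and 45.8 FPKM at high Pi (log2 difference −1.49 ± 0.18 SE, limma adjusted p = 0.000505). Cytokinin-O-glucosyltransferase 2 (LOC_Os04g25440), of an enzyme class that stores cytokinin as a glucoside, had 46.7, 50.99 and 52.5 FPKM at low Pi, against 79.9, 88.3 and 78.4 FPKM at high Pi (log2 difference −0.70 ± 0.09 SE, limma adjusted p = 0.000656). Abscisic acid signalling, late embryogenesis and protein phosphatase 2C genes gave 10 rises and 2 falls among 75 (5 called without low-Pi replicate 3, 7 up and 4 down by median of ratios). Auxin genes gave 5 and 4 among 85 (3 called without low-Pi replicate 3, 2 up and 4 down by median of ratios), and ethylene and gibberellin genes 4 and 0 among 39 (2 called without low-Pi replicate 1). The gibberellin 2-beta-dioxygenase LOC_Os01g55240, which inactivates gibberellin, had 11.4, 15.8 and 11.02 FPKM at low Pi, against 5.02, 5.2 and 6.7 FPKM at high Pi (log2 difference 1.04 ± 0.23 SE, limma adjusted p = 0.0138). Of 20 jasmonate genes 1 rose (0 called without low-Pi replicate 2, 0 up and 0 down by median of ratios). Called shares were 16.0% for the abscisic acid list, 10.6% for auxin and 10.3% for ethylene and gibberellin genes. For jasmonate the share was 5.0%, against 13.3% of all genes.

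Individual transcription factors stood out within their families. The AP2 factors LOC_Os09g11480 and LOC_Os09g11460 were both higher: LOC_Os09g11480 had 144, 135 and 119 FPKM at low Pi, against 25.8, 38.3 and 37.99 FPKM at high Pi (log2 difference 1.95 ± 0.17 SE, limma adjusted p = 5.86e-05), and LOC_Os09g11460 had 189, 209 and 197 FPKM at low Pi, against 45.1, 83.5 and 79.6 FPKM at high Pi (log2 difference 1.55 ± 0.26 SE, limma adjusted p = 0.00299). The homeodomain gene LOC_Os02g33770 had 18.1, 27.7 and 22.96 FPKM at low Pi, against 3.62, 3.1 and 3.85 FPKM at high Pi (log2 difference 2.39 ± 0.16 SE, limma adjusted p = 9.68e-06). The bZIP factor LOC_Os12g40920 had 7.89, 19.99 and 13.3 FPKM at low Pi, against 2.26, 2.57 and 3.35 FPKM at high Pi (log2 difference 1.91 ± 0.26 SE, limma adjusted p = 0.000889). Each of these 4 had every low-Pi library above every high-Pi library, where groups did not overlap in 32.6% of all tested genes. By family, rises and falls numbered 9 and 4 of 66 AP2/ERF genes (5 called without low-Pi replicate 3, 5 up and 5 down by median of ratios), 11 and 6 of 99 MYB genes (10 called without high-Pi replicate 2, 9 up and 9 down by median of ratios), and 9 and 1 of 50 homeobox genes (3 called without low-Pi replicate 3, 6 up and 2 down by median of ratios). They numbered 4 and 4 of 48 helix-loop-helix genes (3 up and 5 down by median of ratios), 4 and 2 of 44 NAC genes (2 called without high-Pi replicate 2) and 1 and 0 of 52 WRKY genes (0 called without low-Pi replicate 3 and 3 called without high-Pi replicate 1, 1 up and 3 down by median of ratios). The called share was 1.92% for WRKY and 13.6% for NAC genes, against 13.3% of all genes. It was 16.7% for helix-loop-helix, 17.2% for MYB and 19.7% for AP2/ERF genes, and highest of these families for homeobox genes. The locus described as HMG1/2, LOC_Os06g51220, a chromatin protein, had 1747, 1790.2 and 2147 FPKM at low Pi, against 1177, 1308 and 1211 FPKM at high Pi (log2 difference 0.62 ± 0.13 SE, limma adjusted p = 0.0121), and this call was lost without low-Pi replicate 3 (limma adjusted p = 0.0577).

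Signalling and protein quality genes included some of the largest rises. The RING-H2 finger protein LOC_Os01g60730, of a class of ubiquitin ligases, had 40.2, 41.4 and 50.4 FPKM at low Pi, against 1.87, 0.97 and 1.01 FPKM at high Pi (log2 difference 4.32 ± 0.24 SE, limma adjusted p = 2.18e-06). Of the DnaJ co-chaperones, LOC_Os01g42190 had 10.1, 13.4 and 15.1 FPKM at low Pi, against 1.06, 0.56 and 0.83 FPKM at high Pi (log2 difference 2.92 ± 0.22 SE, limma adjusted p = 1.78e-05), and LOC_Os03g18870 had 56.6, 69.96 and 85.9 FPKM at low Pi, against 14.5, 7.59 and 13.1 FPKM at high Pi (log2 difference 2.52 ± 0.24 SE, limma adjusted p = 9.04e-05). Another DnaJ gene, LOC_Os11g10990, fell, with 71.1, 51.3 and 50.6 FPKM at low Pi, against 119.6, 140.0 and 108 FPKM at high Pi (log2 difference −1.08 ± 0.14 SE, limma adjusted p = 0.000612). A pair of DUF26 receptor-like kinase loci was higher: LOC_Os07g43570 had 23.6, 29.8 and 24.5 FPKM at low Pi, against 2.48, 2.74 and 3.43 FPKM at high Pi (log2 difference 2.80 ± 0.25 SE, limma adjusted p = 6.58e-05), and LOC_Os07g43560 had 35.6, 51.9 and 35.2 FPKM at low Pi, against 7.29, 8.7 and 12.3 FPKM at high Pi (log2 difference 2.01 ± 0.34 SE, limma adjusted p = 0.00329). Near-identical kinase copies can share reads, so the split between this pair is uncertain. The thioredoxin LOC_Os02g53400, a small disulfide reductase, had 66.04, 75.1 and 87.2 FPKM at low Pi, against 11.99, 11.3 and 12.3 FPKM at high Pi (log2 difference 2.57 ± 0.21 SE, limma adjusted p = 3.3e-05). Rises and falls numbered 17 and 2 of 230 receptor-like kinases (10 called without low-Pi replicate 3, 14 up and 6 down by median of ratios), 9 and 9 of 138 chaperones (10 called without low-Pi replicate 3) and 14 and 4 of 133 redox proteins (9 called without low-Pi replicate 3, 10 up and 8 down by median of ratios). The called shares were 8.26%, 13.0% and 13.5%, against 13.3% of all genes. The kinases thus lay under that share and the other lists near it.

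Cell wall and defence genes changed singly. The polygalacturonase LOC_Os05g46520, which cuts pectin, had 19.8, 18.9 and 20.96 FPKM at low Pi, against 4.85, 3.05 and 4.63 FPKM at high Pi (log2 difference 2.03 ± 0.15 SE, limma adjusted p = 1.78e-05). The class III peroxidase LOC_Os08g41090 had 71.2, 55.9 and 67.5 FPKM at low Pi, against 20.4, 21.5 and 27.6 FPKM at high Pi (log2 difference 1.45 ± 0.14 SE, limma adjusted p = 9.04e-05). The family 17 glycosyl hydrolase LOC_Os05g31140, of the beta-glucanase family, had 59.5, 53.9 and 31.9 FPKM at low Pi, against 138, 268 and 258 FPKM at high Pi (log2 difference −2.16 ± 0.35 SE, limma adjusted p = 0.00243). Of 60 tested defence proteins 4 rose and 6 fell (3 called without low-Pi replicate 3, 2 up and 6 down by median of ratios), and of 145 NBS-LRR immune receptors 8 rose and 1 fell (1 called without low-Pi replicate 3, 6 up and 3 down by median of ratios), which is 6.21% of the receptors called, against 13.3% of all genes.

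Of the 61 lists, the pentatricopeptide repeat proteins held the most rises. These PPR proteins bind, edit and splice transcripts of plastids and mitochondria, and 62 of 263 tested PPR genes of 392 rose, which is 23.6% against 8.43% of all genes, while 5 fell. Their median difference was 0.29, and 0.23 with median-of-ratios scaling, with which 49 rose. Without low-Pi replicate 3, 22 rose, and 40 of the 62 risen genes were highest in that library. The PPR gene LOC_Os11g24570 had 12.8, 11.9 and 16.8 FPKM at low Pi, against 6.92, 6.81 and 7.14 FPKM at high Pi (log2 difference 0.89 ± 0.12 SE, limma adjusted p = 0.00104). The most abundant PPR gene, LOC_Os04g49350, went the other way, with 38.1, 38.1 and 50.6 FPKM at low Pi, against 108, 111 and 100 FPKM at high Pi (log2 difference −1.32 ± 0.16 SE, limma adjusted p = 0.000489).

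The counts for histone and ribosome-assembly genes moved with single libraries. Of 36 tested core histone genes 9 rose, 9 of them highest in low-Pi replicate 3, and 6 were called without it (4 called without high-Pi replicate 1 and 18 called without low-Pi replicate 1). The median difference of the core histone list was −0.33 in the mutant and 0.71 in WT, and the interaction with genotype was called for 7 of its genes (19.4%, against 3.64% of all genes). The histone gene LOC_Os10g39410 had 217, 325 and 609.5 FPKM at low Pi, against 103, 139.6 and 138 FPKM at high Pi (log2 difference 1.47 ± 0.30 SE, limma adjusted p = 0.00945). Other genes of dividing cells, for DNA replication and mitosis, gave 11 rises and 0 falls of 99 (5 called without low-Pi replicate 1, 7 up and 2 down by median of ratios). They were called at 11.1%, against 13.3% of all genes. Their summed level was 1060 to 1140 FPKM at low Pi and 1030 to 1100 FPKM at high Pi, and the part of dividing cells in the histone result was not tested. For nucleolar rRNA processing 7 of 31 genes rose, and 0 without low-Pi replicate 3. For cytosolic ribosomal proteins the count was 0 risen and 1 fallen of 117 (0 called without low-Pi replicate 3).

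**Figure D4:**
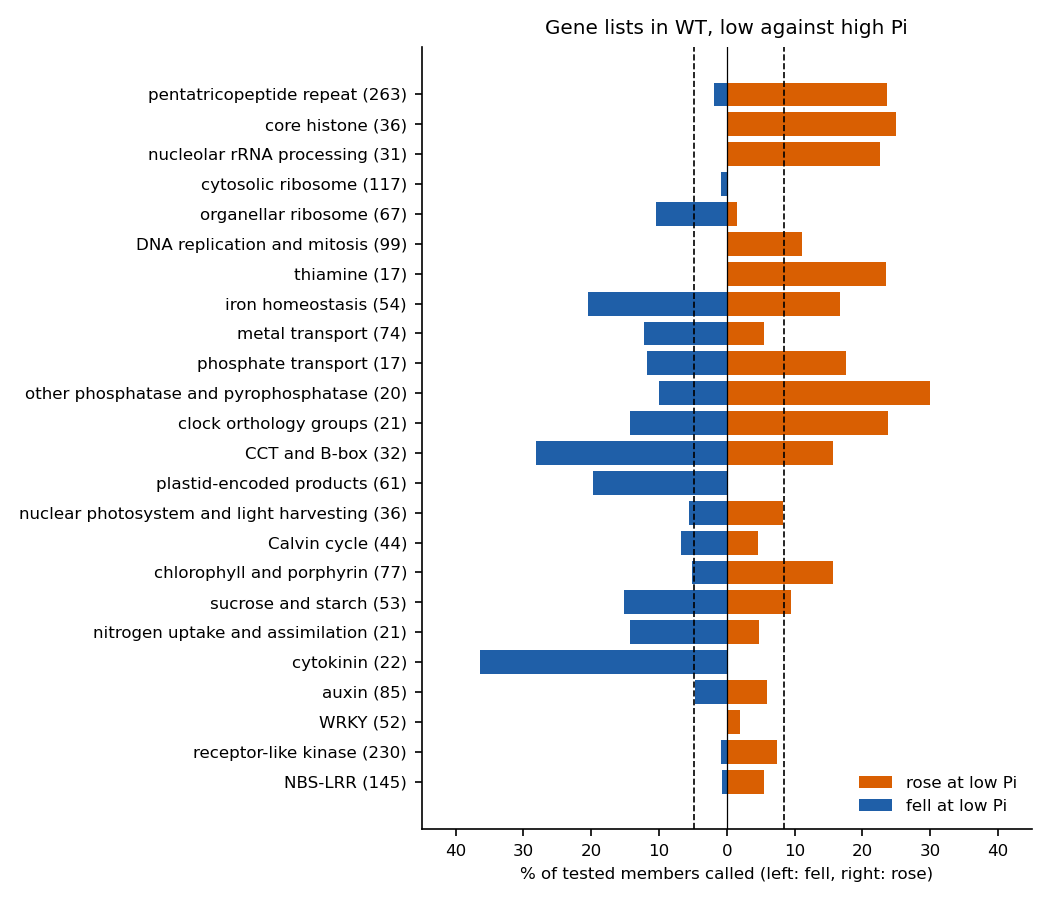
Percentage of tested members that rose (orange, right of 0) or fell (blue, left of 0) at low Pi in WT for 24 gene lists, with the numbers of tested genes beside the names. Dashed lines mark the 8.43% and 4.87% of all tested genes; PPR and core histone genes exceed the first line, and cytokinin and B-box genes the second.

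About 1 in 2 of the WT changes recurred in the mutant. In the Oshmgb1 mutant 3307 genes changed between low and high Pi (18.8%), 1847 upward (10.5%) and 1460 downward (8.28%), and no library is shared between that comparison and the WT one. Both comparisons use the same estimate of each gene's spread, however, so their calls are not independent. Of the 2345 WT calls 1152 were called in the same direction in the mutant, which is 49.1% of the WT list and 34.8% of the mutant list. Among the 537 larger WT changes the share was 60.7%. The response itself differed between genotypes in 641 genes (3.64%), with 263 more positive (1.49%) and 378 more negative (2.14%) in the mutant. Of these 641 genes, 296 were also called in WT (12.6% of the WT calls), and 126 genes were called in opposite directions.

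The interaction with genotype was called for 1 of 17 tested thiamine genes, 1 of 54 iron genes and 0 of 21 clock genes. These shares were 5.88%, 1.85% and 0%, against 3.64% of all genes. The genes called were thiamin pyrophosphokinase 1 (LOC_Os01g70580) and LOC_Os09g23300 of the iron list. It was also called for the helix-loop-helix factor LOC_Os03g26210. Genes with sharp WT changes and no called interaction included thiC (LOC_Os03g47610), Nramp6 (LOC_Os07g15460) and the 3 that follow. The log2 difference of LOC_Os07g34570 was 6.68 in the mutant and 6.01 in WT (interaction adjusted p = 0.526, limma). For LOC_Os01g72370 it was −5.78 in the mutant and −5.50 in WT (limma adjusted p = 0.844). LOC_Os08g06110 gave −2.78 in the mutant and −2.85 in WT (limma adjusted p = 0.892). With SEs of the genotype difference of 0.50, 0.55 and 0.21 on the log2 scale, smaller differences between genotypes could not be seen.

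Other WT changes were not called in the mutant or were reversed in it. The genes below were named for their WT differences, which also enter the interaction. OsCML10 (LOC_Os01g72100), a calmodulin-like calcium sensor, differed by −1.15 in the mutant and 1.66 in WT (limma adjusted p of the interaction = 0.000917). In WT it had 134, 116 and 164 FPKM at low Pi, against 47.6, 32.7 and 49.3 FPKM at high Pi. Its relative OsCML1 (LOC_Os01g59530) differed by 2.20 in the mutant and 1.56 in WT, and that interaction was not called (limma adjusted p = 0.0562). The expansin LOC_Os03g04020, which loosens cell walls, differed by 1.41 in the mutant and −2.12 in WT (limma adjusted p = 0.00425). The WT libraries had 30.1, 18.3 and 10.8 FPKM at low Pi, against 73.8, 106 and 71.1 FPKM at high Pi. The trehalose-6-phosphate synthase LOC_Os02g54820, which makes the sugar signal trehalose 6-phosphate, differed by 1.78 in the mutant and −1.63 in WT (limma adjusted p = 0.00296). Its WT levels were 16.4, 8.96 and 5.46 FPKM at low Pi, against 35.2, 35.6 and 23.9 FPKM at high Pi.

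More regulators showed the same split. OsSAUR39 (LOC_Os09g37330), an auxin-responsive gene, differed by 1.19 in the mutant and −1.88 in WT (limma adjusted p = 0.00296). The homeobox leucine zipper gene LOC_Os09g29460 differed by −1.16 in the mutant and 1.69 in WT (limma adjusted p = 0.00524). In WT its level was 189.6, 238 and 227 FPKM at low Pi, against 49.2, 58.6 and 103 FPKM at high Pi. The Myb factor LOC_Os01g41900 differed by 0.32 in the mutant and −1.82 in WT (limma adjusted p = 0.00296). The B-box and CCT protein LOC_Os02g39710 differed by 0.10 in the mutant and −1.79 in WT (limma adjusted p = 0.00847). The WT libraries had 41.8, 28.9 and 22.3 FPKM at low Pi, against 89.8, 132 and 102 FPKM at high Pi. In WT the low-Pi and high-Pi values of all 7 of these genes did not overlap, as was so for 32.6% of all tested genes.

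**Figure D5:**
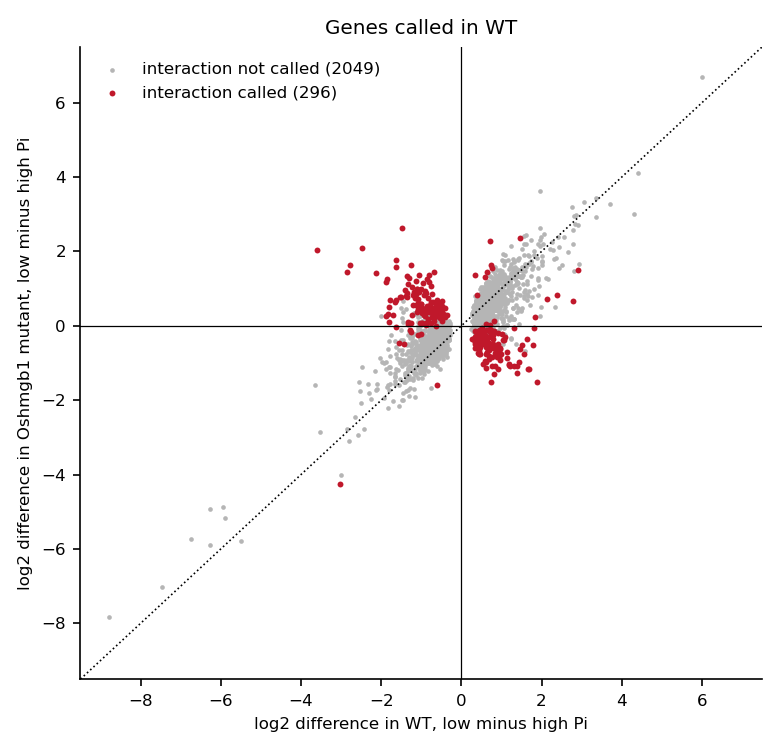
Log2 difference, low minus high Pi, in the Oshmgb1 mutant (vertical) against WT (horizontal) for the 2345 genes called in WT. Grey points are genes whose interaction was not called and red points the 296 whose interaction was; 126 genes were called in opposite directions.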

How the data were processed

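Total RNA of leaf blades was sequenced from 12 libraries in 4 groups of 3, and 6 WT libraries are described here. The authors deposited FPKM values per gene, per the file headers, in 4 tables of 32846 genes, and each library's values were identical in both tables that hold it (12 of 12). CASAVA 2.17, HISAT2 2.0.5 and StringTie 1.3.6 are named, per the submitters' processing notes. Not given in the sources used here are the genome build and the treatment of reads matching several loci, so values of near-identical copies are uncertain. The authors' fold, p-value and q-value columns were not used. Depth is unknown: ratios of FPKM values between 0.1 and 1 showed no step of single reads in 15 pairs of WT libraries, where no window of ± 0.05 (log2) held over 7.5% of ratios.

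From these values, limma 3.58.1 (R 4.3.3) was fitted to log2(FPKM + 1) (group means over 12 libraries, empirical Bayes with a mean trend, two-sided tests). Genes with at least 1 FPKM in 3 or more libraries entered. The interaction is the mutant's difference minus that of WT. Alternatives were a pseudocount of 0.1, no filter, a minimum of 5 FPKM, median-of-ratios and upper-quartile scaling, a replicate block, a fit of the 6 WT libraries and each library left out.

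Genes were named by rule: the 20 largest rises and falls with a description, at least 5 FPKM in the higher group and no overlap, the 10 largest FPKM differences, up to 5 called members with the smallest p and the most abundant member of each of 61 lists, and LOC_Os06g51220. Genes named outside this rule were chosen after their values were seen; these are LOC_Os10g11889, LOC_Os03g15920, LOC_Os05g47780 and LOC_Os11g42510. Lists were matched by the deposited descriptions, Gene Ontology, pathway and orthology columns, which disagree at some loci. Members and lists were chosen with earlier results of these data known. A RefSeq gene table of assembly ASM3414082v1 shared 0 identifiers with the files, so no sequence is printed.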

Additional observations from a re-analysis of the deposited data

Results flagged for a closer look

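For 17 of the 96 named genes the response to low Pi differed between the Oshmgb1 mutant and WT by limma's interaction test, against 3.64% of all tested genes. Most named genes were picked by their WT differences, which also enter the interaction. That choice favours a weaker response in the mutant than in WT, so the count and its direction add no support. The values below are the mutant's log2 difference minus that of WT, with the adjusted p of the interaction. Whether each of these interaction calls holds under the alternative settings was not tested. Without WT high-Pi replicate 2 the interaction count over all genes was 259, against 641.

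Where WT fell at low Pi and the mutant fell less or rose, the value was positive. It was 3.53 for the expansin LOC_Os03g04020 (limma adjusted p = 0.00425), 3.41 for the trehalose-6-phosphate synthase LOC_Os02g54820 (limma adjusted p = 0.00296) and 3.07 for OsSAUR39, LOC_Os09g37330 (limma adjusted p = 0.00296). It was 2.14 for the Myb factor LOC_Os01g41900 (limma adjusted p = 0.00296), 1.89 for the B-box and CCT protein LOC_Os02g39710 (limma adjusted p = 0.00847) and 0.85 for the DnaJ gene LOC_Os11g10990 (limma adjusted p = 0.038).

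Where WT rose and the mutant fell or gave a smaller difference, the value was negative. It was −2.81 for the calcium sensor OsCML10, LOC_Os01g72100 (limma adjusted p = 0.000917), −2.84 for the homeobox gene LOC_Os09g29460 (limma adjusted p = 0.00524) and −2.08 for the histone gene LOC_Os10g39410 (limma adjusted p = 0.0252). It was −1.87 for the CCT protein LOC_Os05g51690 (limma adjusted p = 0.00296), −1.57 for the homeodomain gene LOC_Os02g33770 (limma adjusted p = 0.00588) and −1.05 for thiamin pyrophosphokinase 1, LOC_Os01g70580 (limma adjusted p = 0.00587). The DnaJ gene LOC_Os01g42190 gave −1.42 (limma adjusted p = 0.0299), and the vacuolar membrane protein LOC_Os09g23300 gave −1.42 (limma adjusted p = 0.0225), where WT high-Pi libraries were listed at 0.

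The P450 gene LOC_Os03g39760 gave 0.95 (limma adjusted p = 0.0457), with −0.48 in the mutant and −1.43 in WT.

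For 2 genes the mutant moved in the same direction as WT by more. The helix-loop-helix factor LOC_Os03g26210 gave −1.23 (limma adjusted p = 0.0147), with differences of −4.25 in the mutant and −3.02 in WT. The peroxidase LOC_Os08g41090 gave 0.90 (limma adjusted p = 0.0306), with 2.35 in the mutant and 1.45 in WT.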

How the results depend on the processing

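The WT count of 2345 genes stayed within 1.5 times under a pseudocount of 0.1, no filter, a minimum of 5 FPKM, both scalings, the replicate block and the fit of WT libraries alone (1747 to 2288). With 1 WT library left out it ranged from 1147 to 1899, and the count with a difference of at least 1 in size ranged from 423 to 599. The mutant count of 3307 ranged from 1984 to 3321 with 1 library of either genotype left out. The interaction count of 641 was 366 with no filter, and ranged from 259 to 878 with 1 library left out. Where an arm keeps 2 libraries, the fit assumes the spread of the other groups.

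Same-numbered libraries of the WT groups did not deviate together (correlations of −0.186, −0.004 and −0.23), and differently numbered ones gave −0.156 to 0.31. With 3 libraries per group, these values cannot settle whether the numbers mark pairs. With the replicate block 1763 WT, 2633 mutant and 391 interaction genes were called.

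Of the 94 named genes called in WT, 88 kept the call and the direction in every alternative in which they were tested, and none reversed; the other 6 are LOC_Os01g01340, LOC_Os05g29050, LOC_Os06g29790, LOC_Os06g51220, LOC_Os11g07020 and LOC_Os11g47970. LOC_Os01g01340 and LOC_Os06g51220 also lost it in the fit of WT libraries alone, at limma adjusted p-values of 0.0521 and 0.0517, and LOC_Os06g51220 with no filter at 0.0517. LOC_Os05g29050 lost it in 10 of 13 alternatives. Of 793 list counts under alternatives, 186 moved by over 1.5 times, in 44 of 61 lists. The cause of these shifts was not tested. Without read counts, how depth limits weakly expressed genes is unknown.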

Other observations

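Several further lists gave more falls than rises. Of 110 tested cytochrome P450 genes, oxygenases of hormone and defence compound synthesis, 7 rose and 13 fell (11 called without low-Pi replicate 2, 5 up and 17 down by median of ratios). The P450 gene LOC_Os03g39760 had 19.97, 14.5 and 14.3 FPKM at low Pi, against 44.7, 50.02 and 40.6 FPKM at high Pi (log2 difference −1.43 ± 0.16 SE, limma adjusted p = 0.000296). Of 71 glucosyltransferases, which attach glucose to hormones and other small molecules, 4 rose and 10 fell (7 called without high-Pi replicate 2). Among 52 genes of the carotenoid pathway 3 rose and 8 fell (0 called without high-Pi replicate 2). Of 67 ribosomal proteins of plastids and mitochondria 1 rose and 7 fell (1 called without low-Pi replicate 2), and 0 fell without low-Pi replicate 3. The share that fell was 11.8% of P450, 14.1% of glucosyltransferase, 15.4% of carotenoid and 10.4% of these ribosomal genes. Over all genes 4.87% fell and 8.43% rose.

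Genes for protein turnover gave 20 rises and 10 falls among 280 F-box genes (11 called without low-Pi replicate 3, 14 up and 21 down by median of ratios), and 14 rises and 17 falls among 197 RING and U-box genes (19 called without low-Pi replicate 3). The called shares were 10.7% and 15.7%, against 13.3% of all genes. The RING-H2 gene LOC_Os05g40020 had 5.23, 4.71 and 6.39 FPKM at low Pi, against 0.28, 0.06 and 0.62 FPKM at high Pi (log2 difference 2.30 ± 0.20 SE, limma adjusted p = 5.62e-05). The interaction with genotype was called for 20 F-box genes (7.14%, against 3.64% of all genes). The retrotransposon locus LOC_Os07g04930 had 0, 0.04 and 0 FPKM at low Pi, against 65.2, 56.2 and 62.9 FPKM at high Pi (log2 difference −5.94 ± 0.39 SE, limma adjusted p = 6.69e-06), although of 183 tested transposon loci 14 rose and 6 fell (11 called without low-Pi replicate 3). The lipid transfer protein LTPL40 (LOC_Os07g18990) had 19.5, 21.4 and 28.7 FPKM at low Pi, against 9.47, 8.83 and 10.3 FPKM at high Pi (log2 difference 1.18 ± 0.19 SE, limma adjusted p = 0.00273).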
